A study of Citrus maxima and Citrus sinensis with 12 samples.

Results

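Among the miRNA entries called by the authors in citrus root tips, 34 of 172 carried no homologue of any known miRNA, the homology field of the entry being a dash. They held 26 distinct mature sequences of 126 in the table, and each sequence is described once. Names and levels are those of its entry with the highest mean count, and scores and hairpin values those of its entry with the highest score. Of these sequences 22 had 1 entry and 4 had several. Small RNA was sequenced from root tips of pummelo seedlings (C. grandis, entered under the name Citrus maxima) and sweet orange seedlings (C. sinensis), aged 11 weeks at the start and then sand cultured for 15 weeks. Irrigation supplied H3BO3, boric acid, at 400 µM (toxic) or at 10 µM (control). The 4 groups were C. grandis at 400 µM, C. grandis at 10 µM, C. sinensis at 400 µM and C. sinensis at 10 µM, with 3 libraries each, and the RNA of 5 replicates was mixed for a library, per the labels. The labels do not say whether the 3 libraries come from separate plants, so p-values measure the spread between these libraries, which may be technical.

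Plant miRNAs are cut from a hairpin transcript by a Dicer-like enzyme, usually DCL1, which leaves a duplex of the mature strand and its star strand with 2-nt overhangs at the 3′ ends. Most conserved plant miRNAs are 21 nt long and begin with U, the base preferred by the effector protein AGO1. Small RNAs of 24 nt are typically made by DCL3 and bound by AGO4, which favours A at the first base, and many predicted miRNAs without relatives in other plants fall in this class.

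The mature sequences on which the results turn are given here from 5′ to 3′ as deposited, with capitals on the seed, bases 2 to 8. They are the member with the largest change in C. grandis and the entry on the opposite strand that resembles it, the members that differed most between the species, and the most abundant members.
ci-miRN17 (scaffold_3_17886): gUACUGUAgcugugagggggacgu
scaffold_3_13487 (labelled ptc-miR473a-5p): gUACUGUAgccgugagggggacgc
scaffold_3_10325: aACGUGUGuuucugauuuuguuaa
scaffold_8_42593: cUGAUAGUuuucugaucuuuc
scaffold_7_35524: aAUGAGUUuuaaacuguagacugu
miR-RN02 (scaffold_3_13713): cAUUGGUUcugaguacgucuc
scaffold_2_8655: gUGUGUCGuggauauuaaaaugau
scaffold_5_25676: gUGUGUCGugaauauuagaaugau
scaffold_1_3278: cCUACGUCgcucagauucgu
scaffold_5_28825: aCUUAUUUuguacaaacugacgug
scaffold_2_8758: uCUUACCUaugccacccauucc
The upper pair shares its seed and differs by U11C and U24C, counted from 1 at the 5′ end of ci-miRN17 and giving its base first. The pair scaffold_2_8655 and scaffold_5_25676 also shares its seed and has an edit distance of 2, where edit distance is the number of single-base changes between the sequences.

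The label of no known homologue was checked against the mature sequences of the other entries. The nearest sequence with a homologue was at an edit distance of 8 or more for 22 of 26 sequences, with a median of 9 and a maximum of 11. The label did not hold for scaffold_5_28825. Its 5 entries without a homologue, on scaffolds 1, 5, 6 and 8, have the same 24-nt mature sequence as scaffold_9_43741, which the authors labelled atr-miR8553b. The prediction score, the authors' own score of the hairpin call, was 21228 at scaffold_9_43741 and 0 to 3.5 at the 5 unlabelled entries. Summed counts were 50352 to 65205 at the unlabelled entries and 46453 at scaffold_9_43741, so the same reads were counted at several loci. ci-miRN17 was at an edit distance of 2 from scaffold_3_13487, labelled ptc-miR473a-5p. scaffold_4_18489, chosen for naming after its values were seen, was at an edit distance of 3 from a 24-nt entry labelled ath-miR403-3p. The member scaffold_2_8758 came next, at an edit distance of 7 from csi-miR472.

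ci-miRN17 and scaffold_3_13487 lie across each other. The 250-nt hairpin window of ci-miRN17 is on the minus strand of scaffold 3 at 50071563 to 50071812, and that of scaffold_3_13487 is on the plus strand at 50071419 to 50071668. The windows share 106 nt. The mature sequence of ci-miRN17 shares an unbroken run of 22 nt with the reverse complement of the other entry's star strand, and the mature sequence of scaffold_3_13487 shares a run of 23 nt with the reverse complement of the star strand of ci-miRN17. The sources used here name no genome build and no gene annotation was used, so the gene context of these loci is not given. The 2 entries of scaffold_8_42593 have overlapping windows on the minus strand of scaffold 8, at 18029291 to 18029540 and 18029476 to 18029725. The other member with a neighbouring entry within 10000 nt was scaffold_8_42240, which lies 1523 nt from scaffold_8_39734, labelled gma-miR5770b, on the other strand.

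In length and first base the sequences without a homologue resembled the 24-nt class. Of the 26, 18 were 24 nt long and 4 were 21 nt long, against 32 and 37 of the 100 sequences of the other entries. The first base was A in 14 of the 26 and U in 4, whereas it was A in 28 and U in 57 of the 100 other sequences. Within the 24-nt length class the first base was A in 12 of 18 members and in 20 of 32 others, so the shares there were close. The median GC content was 33.3% in the members, 47.6% in all other sequences and 37.5% in the other 24-nt sequences.

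The hairpin predictions behind the members spanned a wide range. The median score was 408 for the members, 902 for the 98 other sequences with a score and 358 for the other 24-nt sequences. Scores were under 10 for 11 of 26 members, 30 of 98 others and 13 of 32 other 24-nt sequences. By the highest-scoring entry of each sequence, the lowest scores belonged to scaffold_9_48080 (0), miR-RN03 (0.1) and scaffold_7_35524 (0.5). The entries that give the levels of scaffold_8_42593 and scaffold_5_28825 scored 0 and 0.2, and other entries of the same sequences scored 5.6 and 3.5. The highest belonged to ci-miRN17 (49853), scaffold_2_8758 (36316) and scaffold_7_36515 (7563). Hairpin energy, deposited without a stated unit and more negative for a more stable fold, had a median of −70.3 in the members and −72.8 in the others. In the other 24-nt sequences the median was −62.65. ci-miRN17 had the lowest value among the members (−150.8), followed by scaffold_3_9268 (−105.1), and the highest were those of scaffold_5_25676 (−32.7), scaffold_8_42240 (−33.8) and miR-RN02 (−40.2).

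When the deposited mature and star strands were folded against each other, the members had a median of 17 paired bases, as did the others, with a range of 7 to 23. Both 3′ overhangs were 2 nt in 9 of 26 members, in 47 of the 96 others with a star strand and in 7 of the 32 other 24-nt sequences. scaffold_2_8758 had this form, with 18 paired bases. ci-miRN17 had 23 paired bases and overhangs of 1 nt. scaffold_5_25676 had 7 paired bases and scaffold_2_8655 had 10. The authors marked a star strand as found for 31 of the 34 entries. None of the 34 was listed in the deposited table of predicted targets.

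**Figure D1:**
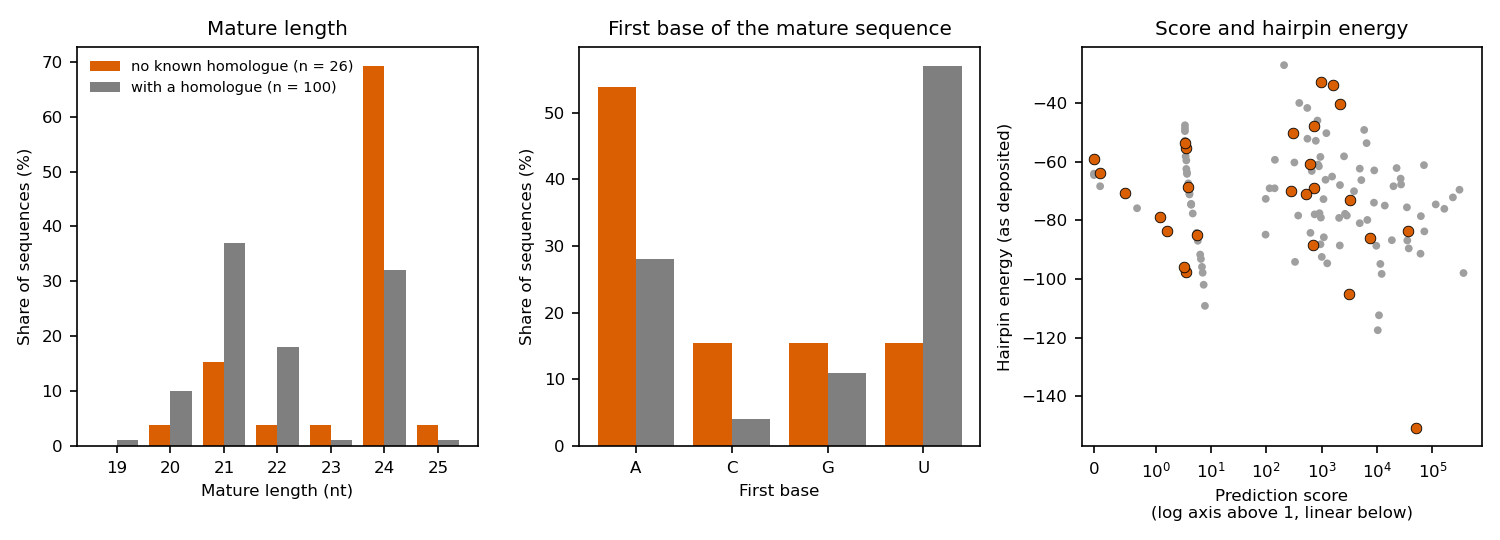
Share of sequences (%) by mature length in nt (left) and by first base (middle), and deposited hairpin energy against prediction score (right, log axis above 1), for the 26 sequences without a known homologue (orange) and the 100 other sequences (grey). The orange bars peak at 24 nt and at A, the grey ones at 21 nt and at U, and the isolated orange point at the lower right is ci-miRN17, with a score of 49853 and an energy of −150.8.

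Levels are given as CPM, counts scaled to a library size of 1000000. A library held 479090 to 1062488 counts in all (282149 to 577150 with each sequence counted once). Log levels of replicate libraries had Pearson correlations of 0.968 to 0.995 across miRNA entries, which are not independent replicates. All 34 entries passed the filter on low counts. scaffold_3_10325 and scaffold_8_42593 passed it only through C. sinensis, so that they had to differ between the species. miR-RN03 and miR-RN04 passed it only through C. grandis libraries, so that a higher level in that species was favoured. In such bulk samples, fewer cells of a type and less of a miRNA per cell cannot be told apart. The table holds miRNAs only, so the tissue label was not checked against marker genes.

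The members ranged in mean level from 17.1 to 107134 CPM, and 1 sequence held most of their counts. scaffold_1_3278, 20 nt long, averaged 107134 CPM over all libraries. It was measured at 63756, 131859 and 108640 CPM in C. grandis at 400 µM, and at 107445, 77439 and 139820 CPM at 10 µM. C. sinensis had 93387, 85734 and 141713 CPM at 400 µM, and 85024, 79561 and 171229 CPM at 10 µM. The sequence varied more within each group than between groups. Its score was 1.6, and its mature and star strands had 9 paired bases with overhangs of 7 and 6 nt.

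Next in mean level were ci-miRN17 with 11024 CPM, scaffold_5_28825 with 7383 CPM, scaffold_2_8758 with 6883 CPM and scaffold_7_35524 with 3081 CPM. The lowest mean was 17.1 CPM, in miR-RN03. scaffold_2_8758, the high-scoring 22-nt sequence, differed little between groups. At 400 µM it averaged 7218 ± 1058 CPM in C. grandis and 6539 ± 800 CPM in C. sinensis, and at 10 µM 7037 ± 1017 CPM in C. grandis and 6737 ± 1209 CPM in C. sinensis (SD, n = 3 each). Score and mean level were weakly related over the 26 sequences, with a Spearman rho of 0.31 that is given as a description, since all points share the same libraries.

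**Figure D2:**
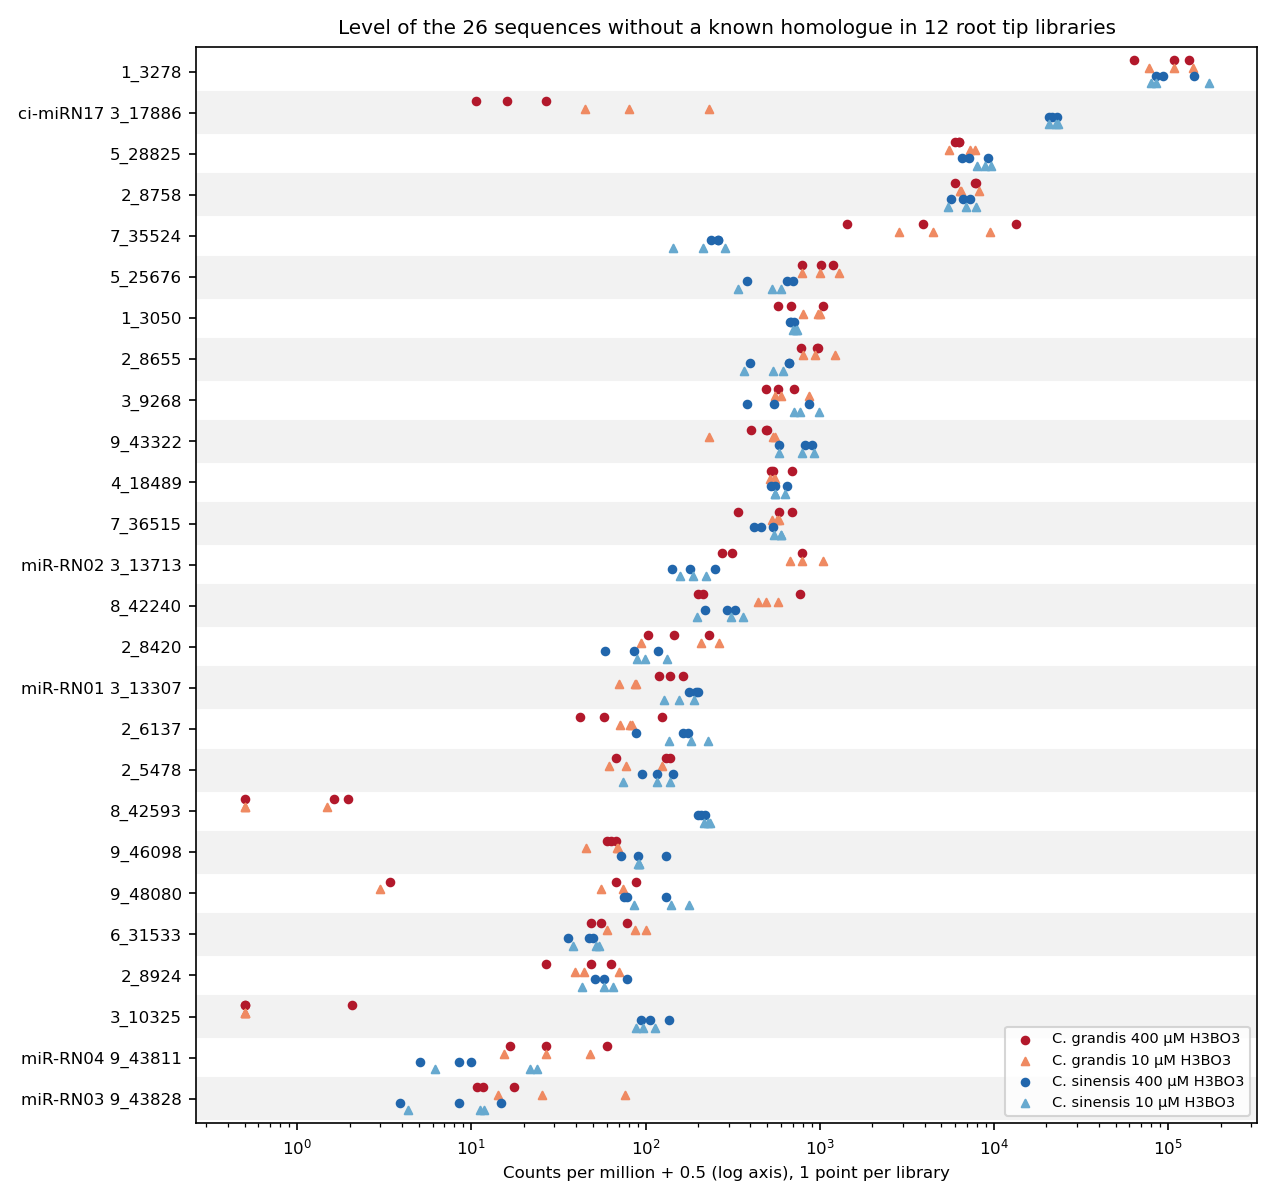
Level of each of the 26 sequences (rows, named without the prefix scaffold_) in CPM + 0.5 on a log axis, with 1 point for each of the 12 libraries. For ci-miRN17, 8_42593 and 3_10325 the C. grandis points lie far left of the C. sinensis points, and for 7_35524 they lie to the right.

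Together the members held a similar share of the counts in the 4 groups, with each sequence counted once. The share was 13.97%, 27.18% and 26.31% in C. grandis at 400 µM, and 28.67%, 22.86% and 29.69% at 10 µM. In C. sinensis it was 23.96%, 22.08% and 27.54% at 400 µM, and 21.80%, 21.10% and 34.92% at 10 µM. The groups overlapped in each species and at each level. Without scaffold_1_3278 the share was 5.69% ± 1.87 in C. grandis and 8.48% ± 0.88 in C. sinensis at 400 µM, and 6.97% ± 1.18 in C. grandis and 9.09% ± 0.49 in C. sinensis at 10 µM (SD, n = 3 each). Leaving out ci-miRN17 as well turned the direction, with 5.69% ± 1.87 in C. grandis and 4.30% ± 0.54 in C. sinensis at 400 µM, and 6.94% ± 1.20 in C. grandis and 4.74% ± 0.40 in C. sinensis at 10 µM.

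The comparison of the species asked which of these sequences the root tips of C. grandis held at other levels than those of C. sinensis. At 10 µM, 10 of 26 members differed by edgeR's quasi-likelihood test with Benjamini-Hochberg adjustment over all 170 entries, 5 higher and 5 lower in C. grandis. Over all 124 sequences tested, 17.7% were higher and 11.3% lower. The sequence of scaffold_5_28825 was not called by the entry used here (log2 difference −0.36 ± 0.18, adjusted p = 0.15, edgeR). Its entry scaffold_1_2375 did pass at 10 µM (−0.54 ± 0.19, adjusted p = 0.046, edgeR), so that result depends on the entry. At 400 µM, 6 of 26 differed, 3 higher and 3 lower, and the shares over all sequences were 17.7% higher and 8.87% lower. With median-of-ratios scaling the split at 400 µM was 3 higher and 5 lower. In both directions together, 38.5% of the members and 29.0% of all sequences were called at 10 µM, and 23.1% of the members and 26.6% of all sequences at 400 µM. Among 24-nt sequences, 27.8% of the members and 38.7% of the others were called at 10 µM. At 400 µM these shares were 22.2% and 32.3%. The median log2 difference was −0.08 at 10 µM and 0.00 at 400 µM over the members, and 0.09 and 0.15 over all sequences. The 2 levels share no library but were fitted together, with a shared estimate of the spread. In the same direction at both, 5 of 26 members (19.2%) were called, against 22 of 124 sequences (17.7%). The member counts at each level and at both include scaffold_3_10325 and scaffold_8_42593. These passed the filter only through C. sinensis, so their calls were fixed in advance. Among the members higher in C. grandis are miR-RN03 at 10 µM and miR-RN04 at 400 µM. Those 2 passed the filter only through C. grandis libraries, so their direction was favoured in advance. The splits into higher and lower are not free of this selection.

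The members ci-miRN17, scaffold_3_10325 and scaffold_8_42593 were low or nearly absent in C. grandis. ci-miRN17 was measured at 10.1, 15.6 and 26.3 CPM in C. grandis and at 23066, 21477 and 20606 CPM in C. sinensis at 400 µM. At 10 µM it was measured at 79.8, 44.7 and 230.9 CPM in C. grandis and at 23457, 22620 and 20658 CPM in C. sinensis. Every C. grandis library was far below every C. sinensis library, whose 6 values lay close together. The log2 difference was −10.31 ± 0.64 (SE) at 400 µM and −7.56 ± 0.56 at 10 µM.

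scaffold_3_10325 had 1 count over the 3 C. grandis libraries and 261 counts over the 3 C. sinensis libraries at 400 µM. After scaling, the C. sinensis level was 243 times that of C. grandis, with a 95% exact counting interval of 43.3 to 9643. At 10 µM C. grandis had 0 counts and C. sinensis 177, and with 3 counts over the group as the limit that 0 counts allow, the level was at least 85.8-fold higher in C. sinensis. scaffold_8_42593, 21 nt long, had 2 counts in C. grandis and 495 in C. sinensis at 400 µM, a ratio of 231 in favour of C. sinensis (63.5 to 1910). At 10 µM it had 1 count in C. grandis and 402 in C. sinensis, a ratio of 585 (104 to 23152). Both sequences were detected in all 6 C. sinensis libraries. The level of scaffold_8_42593 in C. sinensis varied little, from 199 to 219 CPM at 400 µM and from 215 to 234 CPM at 10 µM. Intervals and limits of this kind cover counting error only.

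The entry on the opposite strand from ci-miRN17 was also lower in C. grandis, by less. scaffold_3_13487 was measured at 514, 56.0 and 362 CPM in C. grandis and at 3561, 3701 and 3867 CPM in C. sinensis at 400 µM. At 10 µM it was measured at 368, 605 and 311 CPM in C. grandis and at 3884, 4004 and 3922 CPM in C. sinensis. The groups did not overlap, and the log2 difference was −3.57 ± 0.56 at 400 µM (adjusted p = 0.00040) and −3.20 ± 0.55 at 10 µM (adjusted p = 0.00067, edgeR). The count of ci-miRN17 was 0.0196 to 0.743 of that of scaffold_3_13487 in the 6 C. grandis libraries and 5.27 to 6.48 times it in the 6 C. sinensis libraries. The labels and tables do not say how reads matching both sequences were assigned.

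**Figure D3:**
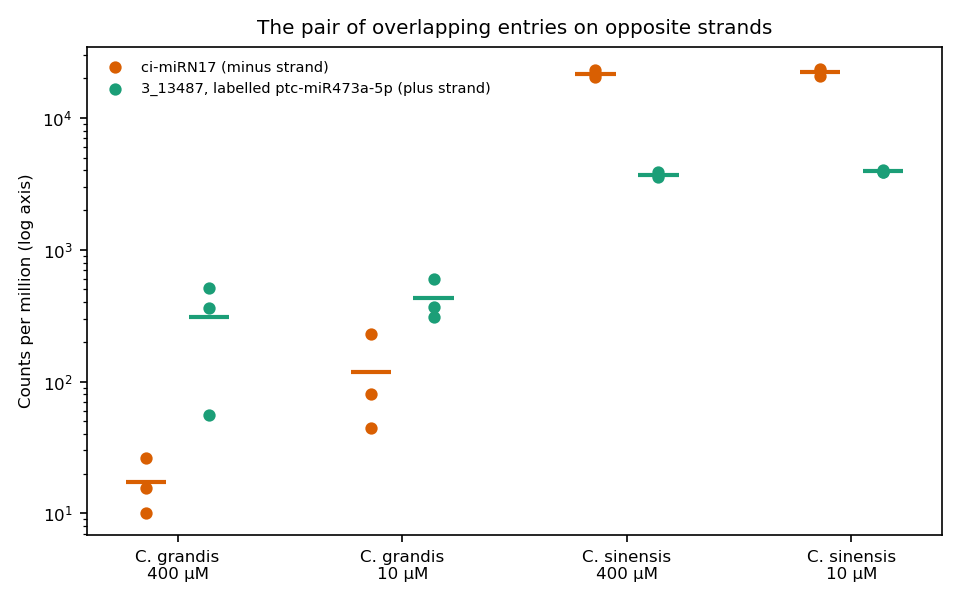
CPM (log axis) of ci-miRN17 (orange) and of scaffold_3_13487 (green) in the 3 libraries of each group, with a bar at the group mean. ci-miRN17 lies above its neighbour in every C. sinensis library and below it in every C. grandis library.

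The member with the largest excess in C. grandis was scaffold_7_35524, a 24-nt sequence with a score of 0.5. It was measured at 1440, 3911 and 13446 CPM in C. grandis and at 238, 260 and 260 CPM in C. sinensis at 400 µM. At 10 µM it was measured at 9445, 2840 and 4488 CPM in C. grandis and at 143, 214 and 286 CPM in C. sinensis. The groups did not overlap at either level, although the C. grandis libraries at 400 µM differed among themselves by a coefficient of variation of 101%. The log2 difference was 4.63 ± 0.72 at 400 µM (adjusted p = 0.00040) and 4.70 ± 0.73 at 10 µM (adjusted p = 0.00045, edgeR).

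miR-RN02, a 21-nt sequence, was also higher in C. grandis at both levels. It was measured at 314, 274 and 795 CPM in C. grandis and at 141, 180 and 249 CPM in C. sinensis at 400 µM. At 10 µM it was measured at 675, 1044 and 794 CPM in C. grandis and at 158, 223 and 187 CPM in C. sinensis. All C. grandis values were above all C. sinensis values at the same level. The log2 difference was 1.27 ± 0.38 at 400 µM (adjusted p = 0.024) and 2.14 ± 0.38 at 10 µM (adjusted p = 0.0010, edgeR). The call at 400 µM was lost in 7 of 15 alternatives. Without replicate 3 of C. grandis at 400 µM the log2 difference was 0.62 with an adjusted p of 0.13 by edgeR, and without replicate 1, 2 or 3 of C. sinensis at 400 µM the adjusted p was 0.19, 0.15 or 0.074.

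The look-alike 24-nt members scaffold_2_8655 and scaffold_5_25676 were higher in C. grandis at 10 µM, with log2 differences of 0.96 ± 0.26 and 1.06 ± 0.29. At 400 µM their log2 differences were 0.65 ± 0.26 and 0.79 ± 0.29, and neither passed the threshold. Their counts differed by a ratio of 0.813 to 1.08 in the 12 libraries. Both calls were lost without replicate 2 of C. grandis or replicate 1 of C. sinensis at 10 µM (edgeR adjusted p = 0.16 to 0.17). Since reads could be split between such similar sequences, they are uncertain as 2 separate results.

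The remaining calls were at 1 level. miR-RN03 was higher in C. grandis at 10 µM, with 76.1, 24.8 and 13.7 CPM in C. grandis and 10.7, 11.3 and 3.81 CPM in C. sinensis (log2 difference 2.10 ± 0.70). miR-RN04 was higher in C. grandis at 400 µM, with 59.4, 26.5 and 16.1 CPM in C. grandis and 9.52, 4.58 and 7.97 CPM in C. sinensis (log2 difference 2.23 ± 0.67). In both, the 3 C. grandis libraries lay above the 3 C. sinensis libraries but spread widely. Both sequences passed the filter on low counts only through C. grandis libraries. The filter thus favoured this direction, and neither the calls nor the lack of overlap are independent support for it. miR-RN01, the 25-nt sequence, was lower in C. grandis at 10 µM by a log2 difference of −0.96 ± 0.23, and scaffold_2_6137, a 21-nt sequence with 3 entries on scaffold 2, by −1.22 ± 0.39. The call of miR-RN01 at 10 µM held in all 15 alternatives. Of those tried for the other calls at 1 level, 10 of 15 ended the call of miR-RN03, 6 of 15 that of miR-RN04, 7 of 15 that of scaffold_2_6137 and 4 of 15 each that of scaffold_2_8655 and scaffold_5_25676. The call of scaffold_2_6137 was lost when any 1 of the 6 libraries compared was left out (edgeR adjusted p = 0.061 to 0.12). That of miR-RN03 was lost when any 1 of the 6 but replicate 3 of C. grandis was left out (0.086 to 0.20), with a log2 difference of 1.14 without replicate 1 of C. grandis. That of miR-RN04 was lost when any 1 of its 6 but replicate 3 of C. grandis was left out (0.052 to 0.17).

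**Figure D4:**
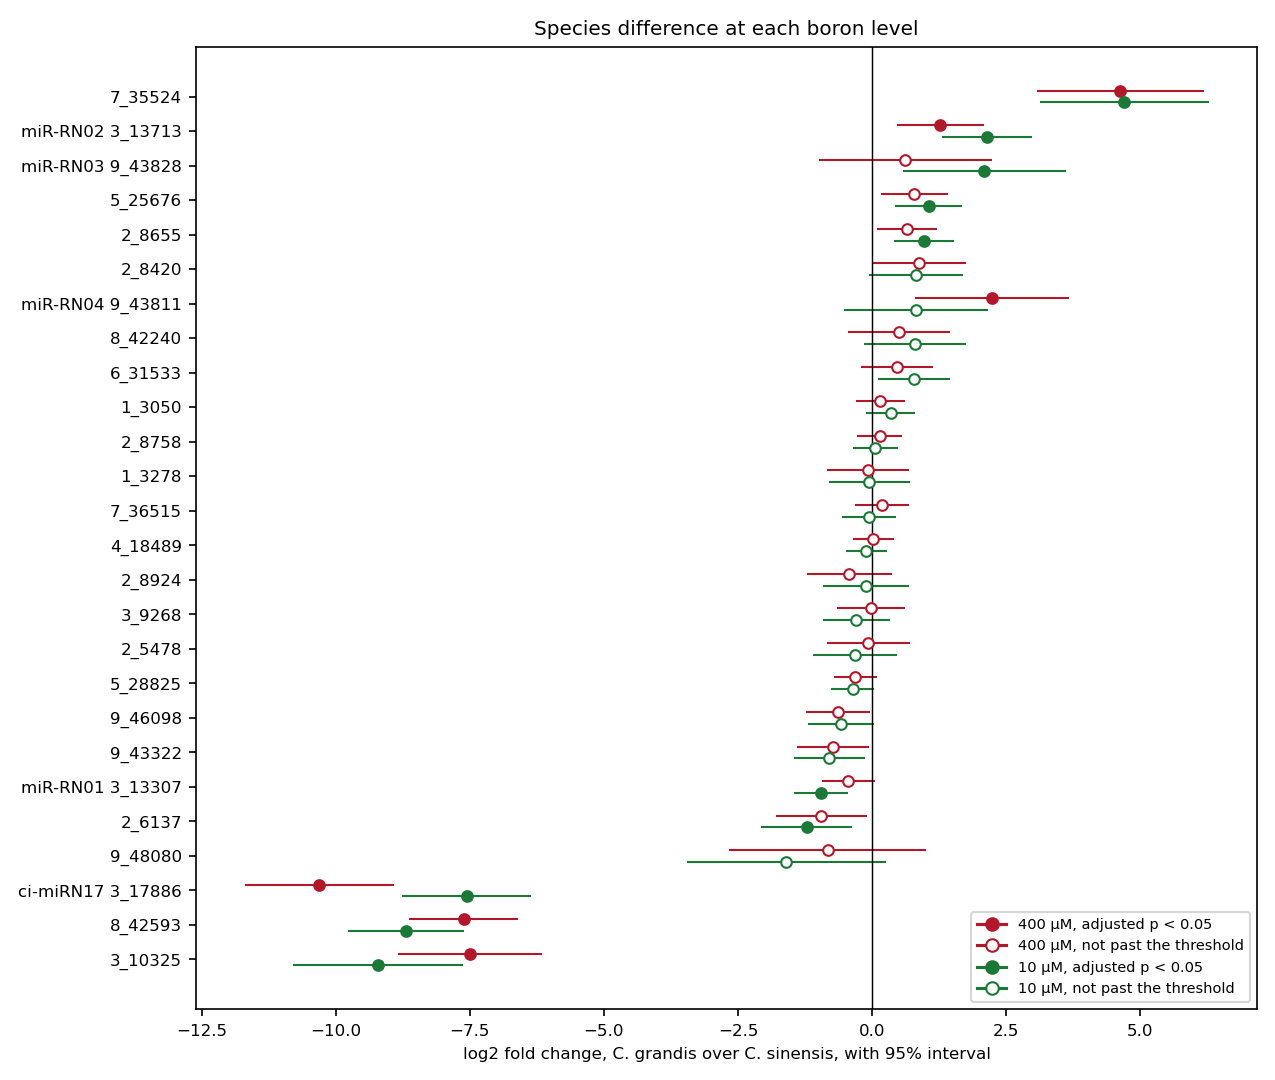
Log2 fold change of C. grandis over C. sinensis with its 95% interval for the 26 sequences (named without the prefix scaffold_), at 400 µM (red, upper) and at 10 µM (green, lower). Filled points had an adjusted p below 0.05. Values of 8_42593 and 3_10325 rest on 0 to 2 counts in C. grandis and depend on the fitted prior count.

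scaffold_9_48080, with a single entry and a score of 0, did not differ between the species beyond the threshold but was split within C. grandis. It was measured at 67.2, 87.2 and 2.92 CPM in C. grandis and at 130, 74.5 and 77.4 CPM in C. sinensis at 400 µM. At 10 µM it was measured at 54.9, 73.5 and 2.50 CPM in C. grandis and at 85.3, 139 and 177 CPM in C. sinensis. Both libraries numbered 3 in C. grandis were far below the other 4 of that species. Of 124 sequences it was the 1 that lay more than 4-fold below the other 4 C. grandis libraries in both, and 0 lay more than 4-fold above.

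The comparison of 400 µM with 10 µM in C. grandis addressed the response to excess boron. Here 1 of 26 members was called by edgeR, lower at 400 µM, and over all 124 sequences 1.61% were called. The member was ci-miRN17, measured at 10.1, 15.6 and 26.3 CPM at 400 µM and at 79.8, 44.7 and 230.9 CPM at 10 µM. The groups did not overlap, and the log2 change was −2.78 ± 0.54 (adjusted p = 0.017, edgeR). Without replicate 1 at 400 µM the adjusted p was 0.094. With the 6 C. grandis libraries fitted alone it was 0.19, also by edgeR. scaffold_3_13487, the entry on the opposite strand, had a log2 change of −0.46 ± 0.51 (adjusted p = 0.74) in the main edgeR fit.

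The 2 boron groups of C. grandis did not overlap in 2 of 26 members, and over all sequences in 15.3%. The second such member was miR-RN01, at 165, 137 and 118 CPM at 400 µM and 87.3, 69.6 and 86.1 CPM at 10 µM. Its log2 change was 0.79 ± 0.23 and did not pass the threshold (adjusted p = 0.098, edgeR). The members with the next smallest p were miR-RN03, with a log2 change of −1.56 ± 0.65, miR-RN02 with −0.86 ± 0.37 and scaffold_6_31533 with −0.45 ± 0.30, and none passed the threshold. For miR-RN02 the libraries at 400 µM were split, with replicate 3 at 795 CPM and the other 2 at 314 and 274 CPM. Without that library its adjusted p was 0.016 by edgeR, and scaffold_8_42240 was then called too. Without replicate 2 at 400 µM, scaffold_1_3050 was called beside ci-miRN17. scaffold_8_42240 was measured at 214, 201 and 769 CPM at 400 µM and at 493, 575 and 444 CPM at 10 µM, with the same library high.

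Over all members the C. grandis values lay around 0. The log2 change was above 0 in 11 and below 0 in 15, with a median of −0.08, against 0.05 over all sequences. Total-count scaling moved the median over all sequences to −0.17 and the members' split to 4 above and 22 below. The largest positive values, in scaffold_3_10325 and scaffold_8_42593, rest on 1 count against 0 and 2 counts against 1, so no fold is given for them.

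In C. sinensis the same comparison gave 0 of 26 members called by edgeR and 0% over all sequences. At an unadjusted p under 0.05 there were 0 members, and DESeq2 called 0. The boron groups did not overlap in 1 of 26 members, and over all sequences in 11.3%. The member with the smallest p was miR-RN04, at 9.52, 4.58 and 7.97 CPM at 400 µM and 23.4, 21.3 and 5.71 CPM at 10 µM, where replicate 3 at 10 µM was as low as the libraries at 400 µM. Its log2 change was −1.21 ± 0.72 (adjusted p = 0.89, edgeR). The next were scaffold_3_9268 with −0.46 ± 0.29, scaffold_7_36515 with −0.30 ± 0.23, miR-RN01 with 0.27 ± 0.23 and scaffold_5_28825 with −0.20 ± 0.18. ci-miRN17 had a log2 change of −0.03 ± 0.41 in this species.

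Whether the boron effect differed between the species was tested as the difference of the log2 changes, C. grandis minus C. sinensis. By edgeR 0 of 26 members were called, as were 0% of all sequences, with 1 member at an unadjusted p under 0.05 and 1 called by DESeq2. In both cases the member was ci-miRN17, with a difference of −2.75 ± 0.68 (adjusted p = 0.13, edgeR). Over the alternatives its adjusted p ran from 0.0012 to 0.34, and it was called without replicate 2 (0.0041, edgeR) or replicate 3 (0.035) of C. grandis at 10 µM. The next smallest p belonged to miR-RN02 (−0.87 ± 0.53), miR-RN01 (0.52 ± 0.32), miR-RN04 (1.42 ± 0.91) and miR-RN03 (−1.47 ± 1.04), and none passed the threshold. The sign of the boron change was the same in both species in 17 of 26 members (65.4%) and in 76 of 124 sequences (61.3%).

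**Figure D5:**
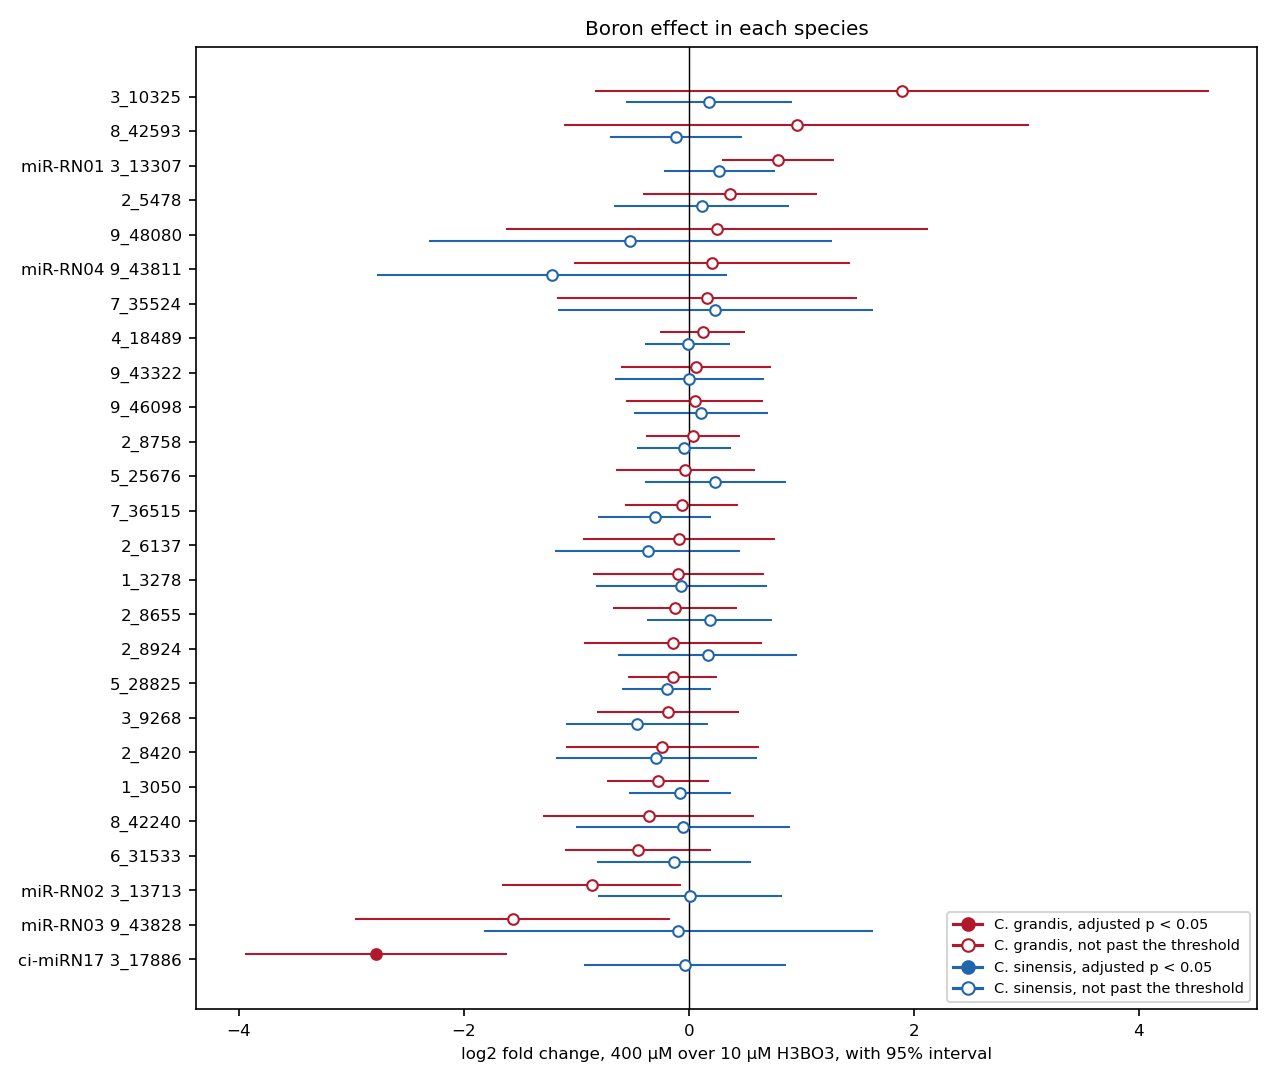
Log2 fold change of 400 µM over 10 µM H3BO3 with its 95% interval for the 26 sequences (named without the prefix scaffold_), in C. grandis (red, upper) and C. sinensis (blue, lower). The 1 filled point, with an adjusted p below 0.05, is ci-miRN17 in C. grandis. Values of 3_10325 and 8_42593 in C. grandis rest on 0 to 2 counts.

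The authors' deposited table of boron-responsive miRNAs lists 6 of the 34 entries, all with a false discovery rate of 0.56 to 0.93. In the authors' deposited table the log2 fold change in C. grandis was −2.81 for ci-miRN17 (p = 0.045, false discovery rate 0.56), −0.88 for miR-RN02, −1.62 for miR-RN03 and 0.77 for miR-RN01. For C. sinensis the authors' deposited table gives −1.19 for miR-RN04 and for miR-RN05, 2 entries with the same mature sequence.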

How the data were processed

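The authors deposited counts of reads per miRNA entry, as whole numbers without normalisation. The deposited table of identified miRNAs gives the authors' prediction score, coordinates, sequences and hairpin energy. The authors' deposited table of boron-responsive miRNAs gives, per entry, a log2 fold change with its p-value and its false discovery rate. DESeq is the only tool in the submitters' processing notes, and the sources used here name no aligner, miRNA caller or build. The labels give a TruSeq small RNA kit and single-end Illumina reads.

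The 34 members were joined by entry name. The 172 entries were filtered with filterByExpr at a minimum count of 10 (170 kept) and fitted with edgeR 4.0.16 (R 4.3.3): trimmed-mean scaling, 1 mean per group over 12 libraries (8 residual degrees of freedom), quasi-likelihood F tests, two-sided, Benjamini-Hochberg adjusted p under 0.05 over all entries. A standard error is the absolute log2 change over the root of F. The biological coefficient of variation was 28.1%. 1 list of sequences served both species, so a level counts reads assigned to that sequence. Duplexes were folded with ViennaRNA 2.7.2. Both steps were tested on simulated data. In simulated counts the edgeR fit found 44.2% of 2-fold and 99% of 4-fold boron changes in C. grandis. For species differences at 10 µM it found 47.8% and 98.2%. False calls made up 9.48% of the calls for 2-fold species differences and 4.32% to 5.04% in the other settings. Members and lists were chosen with earlier results of these data known.

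Named members were those called, up to 10 per direction, otherwise the 5 smallest p of a comparison; the 5 most abundant; those in the authors' table; the 3 highest and 3 lowest by score and energy; and those near another entry or sharing its seed. Equal replicate numbers correlated in C. sinensis across boron levels (0.45, 0.27 and 0.31 after removing group means). They met there the rule that every pair exceeds 0.1. In C. grandis the values were −0.07, −0.24 and 0.24. Unequal numbers reached 0.13 in C. sinensis and 0.51 in C. grandis, and the labels state no pairing, so the rule does not establish it. Alternatives were scaling by median of ratios or by total counts, DESeq2 1.42.0, leaving out the filter and a filter at 10 mean CPM. Further ones were 1 row per mature sequence, a replicate block, only the 6 libraries compared, with or without that block, and each library left out.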

Additional observations from a re-analysis of the deposited data

How the results depend on the processing

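The count of members called for boron in C. grandis was 1, and 0 when only its 6 libraries were fitted, with or without a replicate block; with each library left out it ran from 0 to 3. In C. sinensis, where libraries of equal replicate number correlated, the replicate block gave 0 members, as did every other alternative run. For the difference of boron effects the count was 1 with total-count scaling, DESeq2, no filter or the replicate block, ci-miRN17 each time, and 0 to 1 with each library left out. For the species difference at 10 µM it ran from 6 to 10 with each library left out, and was 6 without replicate 2 of C. grandis or replicate 1 of C. sinensis at 10 µM. The difference of the members' share of counts, C. grandis minus C. sinensis, was −0.45 percentage points over both levels, −2.45 without the most abundant member, −2.42 for 24-nt members, 1.80 without the most abundant member and ci-miRN17 (an alternative chosen after seeing the data, as was the replicate block on 6 libraries), and −1.66 to 1.79 with each library left out. Of 483 alternative values for 31 pairs of a named member and a comparison, 435 kept their direction and side of the threshold, 41 lost the call, 7 gained it and 0 reversed. miR-RN04 could not be fitted in the C. sinensis libraries alone, where it fell under the filter. The cause of these changes was not tested. Members such as scaffold_3_10325 and miR-RN03 had few counts, and whether depth limited their results was not tested.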
